A study of Homo sapiens with 9 samples.

Results

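The genes studied here encode 10 secreted or secretory-pathway products of goblet and Paneth cells of the gut: the trefoil factors TFF1, TFF2 and TFF3, the mucus-associated proteins FCGBP and ZG16, the peptide SPINK4, the lectin REG4, the disulfide isomerase AGR2 and the alpha defensins DEFA5 and DEFA6. They were chosen by name, and all of their probe sets were taken, which gave 13 of the 54675 probe sets on the array for these 10 of the 19775 genes. The cells were HT-29, a human colon adenocarcinoma line that can form mucus-secreting cells in culture. Triplicate cultures received 5-aza-deoxycytidine (5-Aza), an inhibitor of DNA methyltransferases, at 5 μM or 10 μM for 5 days, and the 3 control cultures (0 μM) received the vehicle DMSO alone. Total RNA of each culture was hybridized to its own Affymetrix U133 Plus 2.0 array. All groups are of this 1 line, so no group stands for normal goblet or Paneth cells.

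Goblet cells secrete the mucus that coats the intestinal lining. Its gel is built by mucins, and trefoil factors, FCGBP and ZG16 are released with it. Paneth cells lie at the base of the crypts of the small intestine and release antimicrobial peptides, among which the alpha defensins are specific to them in the gut. AGR2 stays mostly in the endoplasmic reticulum, where it is needed to make intestinal mucin. TFF1 and TFF2 are made mainly by the stomach, whereas TFF3 is the trefoil factor of intestinal goblet cells.

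Since 5-Aza inhibits the methylation of cytosines, which in human cells falls mostly on CpG dinucleotides, the sequences before the transcription starts are shown for the 4 genes that matched the RefSeq promoter table (GRCh38.p14). Each is the 250 bases before the annotated start, 5′ to 3′ on the strand of the gene, with every CpG in capitals:
SPINK4, chr9:33239917-33240166, plus strand: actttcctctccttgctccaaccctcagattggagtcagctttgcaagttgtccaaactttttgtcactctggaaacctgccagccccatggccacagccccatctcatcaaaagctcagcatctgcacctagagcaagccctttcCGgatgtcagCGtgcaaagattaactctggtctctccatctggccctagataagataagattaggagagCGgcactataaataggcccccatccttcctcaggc
REG4, chr1:119811461-119811710, minus strand: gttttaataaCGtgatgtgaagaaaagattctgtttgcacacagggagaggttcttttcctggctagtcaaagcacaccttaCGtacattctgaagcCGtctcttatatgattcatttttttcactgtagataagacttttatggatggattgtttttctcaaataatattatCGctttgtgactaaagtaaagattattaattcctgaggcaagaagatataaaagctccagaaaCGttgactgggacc
FCGBP, chr19:39934635-39934884, minus strand: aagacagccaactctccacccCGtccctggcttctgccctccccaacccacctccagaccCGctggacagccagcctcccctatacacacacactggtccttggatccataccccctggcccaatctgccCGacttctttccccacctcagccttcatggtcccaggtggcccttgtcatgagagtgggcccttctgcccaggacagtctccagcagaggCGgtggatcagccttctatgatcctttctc
AGR2, chr7:16805000-16805249, minus strand: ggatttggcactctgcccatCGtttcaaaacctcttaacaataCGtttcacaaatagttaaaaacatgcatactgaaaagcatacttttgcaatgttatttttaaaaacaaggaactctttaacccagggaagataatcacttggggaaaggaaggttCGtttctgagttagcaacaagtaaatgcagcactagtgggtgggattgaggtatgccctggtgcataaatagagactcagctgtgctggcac
TFF1, TFF2, TFF3, ZG16, DEFA5 and DEFA6 had no entry. The window held 3 CpGs in SPINK4, 3 in AGR2, 4 in FCGBP and 5 in REG4. Over all 35116 RefSeq windows of this length the median was 11 CpGs, and 38.1% of the windows held 5 or fewer. Of the 11756 genes tested below, 9613 had an entry, and the median over their 13962 windows was 20. It was 16 over the 1127 windows found for 783 of the 1011 genes called higher at 5 μM. Over the 154 windows found for 113 of the 155 genes called lower it was 14.5. The GC content was 50.8% in SPINK4, 35.6% in REG4, 60.8% in FCGBP and 40.4% in AGR2. The letters TATAAA, searched on both strands after the sequences had been seen, were found in SPINK4 and REG4, on the strand of the gene, and not in FCGBP or AGR2. They occur in 10.7% of all windows, in 6.2% of those of tested genes and in 9.8% of those of genes called higher at 5 μM. Methylation itself was not measured on these arrays.

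**Figure D1:**
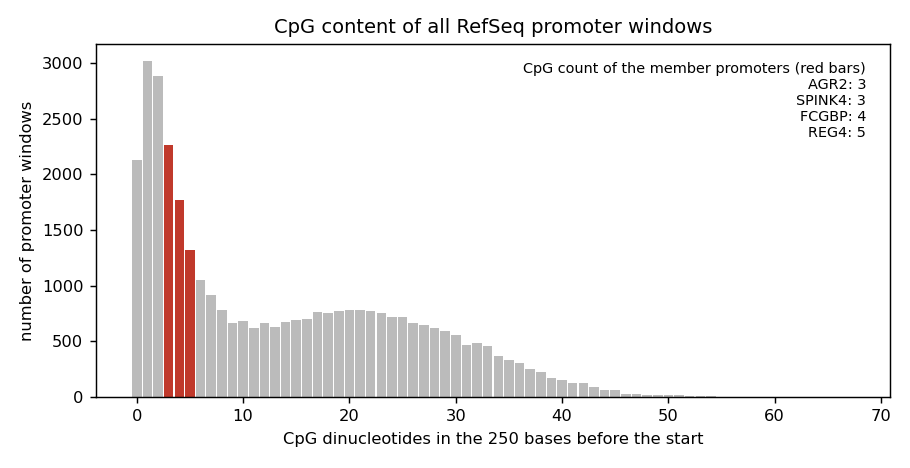
Number of RefSeq promoter windows (y axis) by the number of CpG dinucleotides in the 250 bases before the start (x axis). Red bars mark the counts at which the 4 matched genes lie, 3 to 5 CpGs, in the low peak of the distribution below the median of 11.

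Signals are log2 values, and the median of all probe sets of an array, which lay between 5.07 and 5.52, served as the floor below which a signal was not read as a level. A gene was tested when its signal reached the floor on all 3 arrays of at least 1 group, and it was called changed at an adjusted p of at most 0.05 (limma, Benjamini-Hochberg over 11756 tested genes) together with a change of more than 2-fold. Of 14 colon epithelial markers, 12 were above the floor on all 9 arrays, whereas the intestinal transcription factors CDX1 and CDX2 were below it on all 9. RNA integrity was followed with the actin control, whose 3′ minus 5′ log2 signal increases when transcripts are broken or incompletely copied. This difference was 2.09 ± 0.19 (SD, n = 3) at 0 μM, 2.59 ± 0.10 at 5 μM and 2.98 ± 0.17 at 10 μM (exact permutation test, p = 0.00357, the smallest that the 1680 arrangements allow). It moved with the dose, and with it as a covariate 663 genes were called at 5 μM in place of 1166, and 0 at 10 μM vs. 0 μM in place of 891 (997 at an unadjusted p under 0.05). The 18S control signal of 10 μM replicates 2 and 3 was 13.45 and 13.60, against 11.77 to 12.56 on the other 7 arrays. In RNA of whole cultures, fewer cells of a type and less RNA per cell cannot be told apart.

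At 5 μM vs. 0 μM 5-Aza, 7 of the 10 genes were up-regulated: TFF1, TFF2, SPINK4, ZG16, FCGBP, REG4 and DEFA6. None were down-regulated, TFF3 and AGR2 were not called, and DEFA5 was not tested. Of all tested genes, 9.92% were called in this comparison, and 8.60% were called higher. The 5 μM arrays lay above the 0 μM arrays without overlap in 8 of the 9 tested genes, beside 31.0% of all tested genes, and below them in AGR2, which was not called and turned direction after quantile normalization (0.17), beside 25.4%. The median log2 fold change of the 9 tested genes was 2.45 and became 1.62 when signals below the floor were set to it, beside 0.04 over all tested genes. SPINK4, ZG16, REG4 and DEFA6 did not reach the floor on all of the 0 μM arrays, so they could enter the test only through treated groups in which they were high, and these counts and medians are a description. TFF1, TFF2, TFF3, AGR2 and FCGBP lay above the floor on all 9 arrays, and 3 of these 5 were called higher. With the actin difference as a covariate, TFF1, TFF2, SPINK4, FCGBP and REG4 were still called, whereas ZG16 (2.61, adjusted p = 0.233) and DEFA6 were not.

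**Figure D2:**
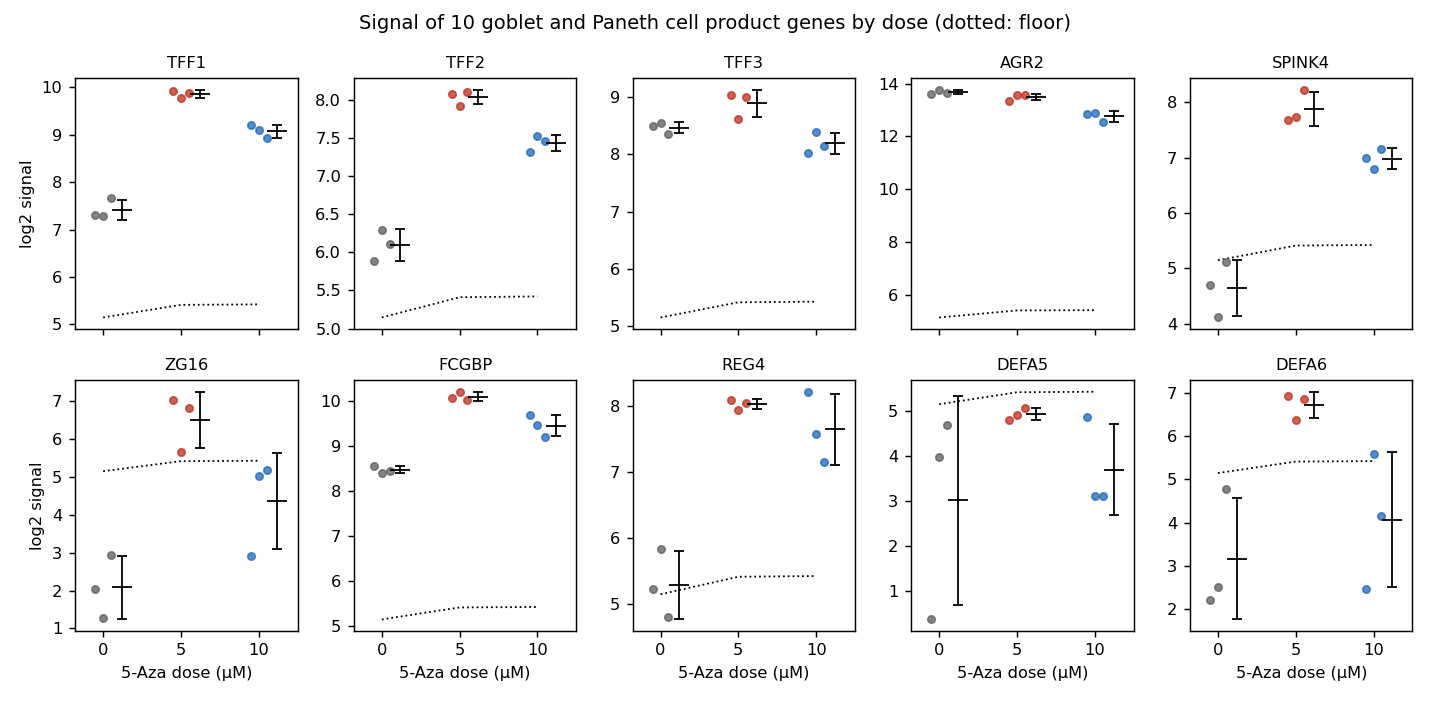
Log2 signal (y axis) of the 10 genes by 5-Aza dose in μM (x axis), 1 point per array, with the mean ± SD (n = 3) beside the points and the mean floor of each group as a dotted line. TFF1, TFF2, SPINK4, FCGBP and DEFA6 peaked at 5 μM, AGR2 was lowest at 10 μM, and DEFA5 stayed below the floor on every array. Each panel has its own y axis.

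Among the trefoil factors, small disulfide-rich peptides that protect and help repair the mucosa, TFF1 showed the largest difference. Its log2 signal was 7.31, 7.28 and 7.66 at 0 μM, 9.93, 9.77 and 9.89 at 5 μM, and 9.21, 9.09 and 8.94 at 10 μM. The 3 groups did not overlap, with 5 μM highest and 0 μM lowest. TFF1 was 5.46-fold higher at 5 μM than at 0 μM (log2 fold change 2.45 ± 0.13, SE, adjusted p = 7.42e-06) and 3.17-fold higher at 10 μM (1.66 ± 0.13, adjusted p = 0.000119).

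TFF2, like TFF1 best known from the stomach, had the same order of doses. Its log2 signal was 5.89, 6.30 and 6.11 at 0 μM, 8.08, 7.93 and 8.11 at 5 μM, and 7.32, 7.52 and 7.46 at 10 μM, again without overlap between groups. The rise was 3.84-fold at 5 μM (log2 fold change 1.94 ± 0.13, adjusted p = 1.83e-05) and 2.53-fold at 10 μM (1.34 ± 0.13, adjusted p = 0.000271).

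TFF3, the intestinal trefoil factor, was already clearly above the floor in the control cultures and moved little. Its log2 signal was 8.50, 8.54 and 8.36 at 0 μM, 9.05, 8.62 and 9.01 at 5 μM, and 8.03, 8.40 and 8.15 at 10 μM. All 5 μM values lay above the 0 μM values, while the 10 μM and 0 μM values overlapped. The log2 difference was 0.43 at 5 μM vs. 0 μM (95% confidence interval 0.10 to 0.76, adjusted p = 0.0503) and -0.27 at 10 μM vs. 0 μM (-0.60 to 0.06, adjusted p = 0.179), and neither was called.

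TFF3, TFF2 and TFF1 lie next to each other on chromosome 21 with no other protein-coding gene between them. Their nearest tested neighbours were ABCG1, a cholesterol transporter gene, beside TFF3 and TMPRSS3, a membrane serine protease gene, beside TFF1. The log2 fold change at 5 μM vs. 0 μM was 0.30 ± 0.09 (SE) for ABCG1 and -0.14 ± 0.19 for TMPRSS3, and at 10 μM it was 0.32 ± 0.09 and -0.18 ± 0.19. Neither was called. Of 12 genes listed from this stretch, 10 were tested, and CBS, which encodes cystathionine beta-synthase, was the 1 gene called. It was at least 4.15-fold higher at 5 μM and at least 1.33-fold higher at 10 μM than at 0 μM, and lower at 10 μM than at 5 μM (-1.64 ± 0.17). In these 3 comparisons 9.92%, 7.58% and 2.35% of all tested genes were called. The median log2 fold change of these 10 neighbours was 0.01 at 5 μM and 0.07 at 10 μM vs. 0 μM.

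**Figure D3:**
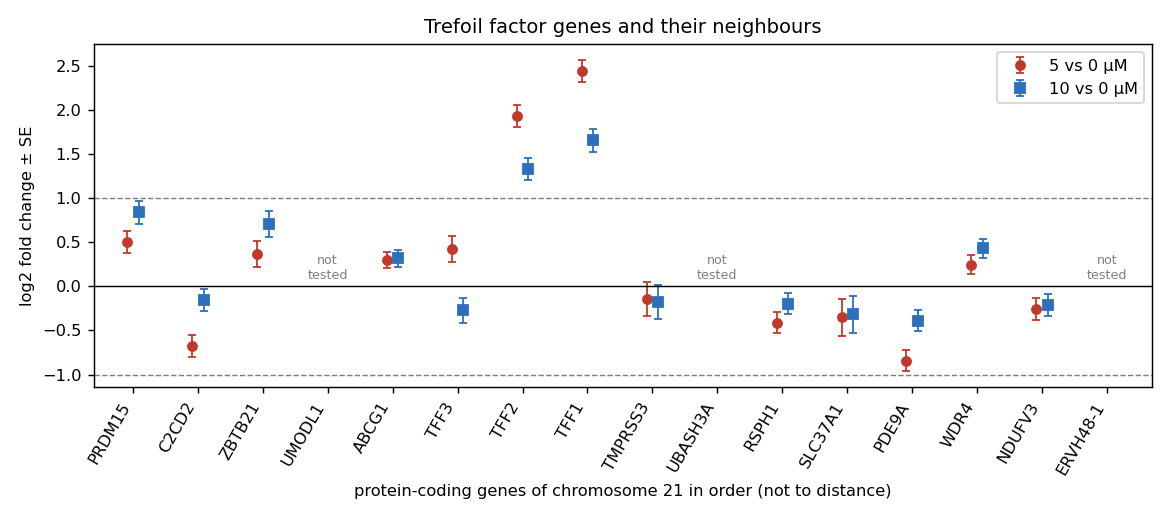
Log2 fold change ± SE (y axis) against 0 μM at 5 μM and 10 μM for the protein-coding genes around the trefoil factor genes, in chromosome order without regard to distance (x axis). Dashed lines mark 2-fold, and TFF1 and TFF2 are the plotted genes above it, while the other plotted values, TFF3 included, lie between the lines. UMODL1, UBASH3A and ERVH48-1 were not tested, and CBS lies beyond the genes plotted.

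FCGBP encodes a large protein bound to the mucin network of goblet cell mucus. Its log2 signal was 8.57, 8.41 and 8.45 at 0 μM, 10.06, 10.21 and 10.03 at 5 μM, and 9.69, 9.47 and 9.20 at 10 μM. The groups did not overlap, and their order was that of TFF1 and TFF2. FCGBP was 3.08-fold higher at 5 μM (log2 fold change 1.62 ± 0.13, adjusted p = 5.98e-05). At 10 μM it was 1.97-fold higher than at 0 μM (0.98 ± 0.13, adjusted p = 0.0012), just under the 2-fold limit, and it was called when 0 μM replicate 1 (1.03), 10 μM replicate 3 (1.11), or 10 μM replicates 2 and 3 together were left out.

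ZG16 encodes a small lectin of colonic mucus that binds Gram-positive bacteria. Its log2 signal was 2.04, 1.26 and 2.95 at 0 μM, 7.03, 5.65 and 6.82 at 5 μM, and 2.91, 5.01 and 5.19 at 10 μM. Only the 5 μM arrays lay above the floor. ZG16 was at least 2.55-fold higher at 5 μM than at 0 μM (adjusted p = 0.00143). The fit also called it higher at 10 μM than at 0 μM (adjusted p = 0.0297), but all 6 arrays were below the floor and the groups overlapped, so no fold is given, and the call was lost with 0 μM replicate 1 (adjusted p = 0.0748) or 2 (0.101), or 10 μM replicate 2 (0.0729) or 3 (0.105), left out, and in 11 of 22 other settings in all.

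SPINK4 encodes a peptide with a Kazal-type protease inhibitor domain that goblet cells secrete. Its log2 signal was 4.70, 4.11 and 5.12 at 0 μM, 7.68, 7.73 and 8.22 at 5 μM, and 6.99, 6.79 and 7.16 at 10 μM. It was below the floor on all control arrays and above it on all treated ones, and the groups did not overlap. SPINK4 was at least 6.64-fold higher at 5 μM (adjusted p = 4.99e-05) and at least 3.57-fold higher at 10 μM (adjusted p = 0.000474) than at 0 μM.

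REG4, a secreted C-type lectin of the regenerating gene family found in goblet and enteroendocrine cells, was measured by 3 probe sets. On the probe set with the highest mean, which stood for the gene, the log2 signal was 5.23, 5.83 and 4.80 at 0 μM, 8.09, 7.94 and 8.04 at 5 μM, and 8.21, 7.57 and 7.15 at 10 μM. The treated groups overlapped with each other and lay above the control arrays. REG4 was 6.68-fold higher at 5 μM (log2 fold change 2.74 ± 0.30, adjusted p = 0.000291) and 5.14-fold higher at 10 μM (2.36 ± 0.30, adjusted p = 0.000963) than at 0 μM. The probe set with the next highest mean was also called higher in both comparisons when each was tested on its own, by a log2 fold change of 3.19 ± 0.43 and 2.60 ± 0.43. The dimmest of the REG4 probe sets reached the floor only on 2 of the 10 μM arrays and was not tested.

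AGR2, the disulfide isomerase of the mucin-making endoplasmic reticulum, did not rise. On the brighter of its 2 probe sets the log2 signal was 13.61, 13.76 and 13.66 at 0 μM, 13.34, 13.56 and 13.56 at 5 μM, and 12.86, 12.88 and 12.53 at 10 μM. The 10 μM arrays were the lowest, without overlap. The log2 difference was -0.19 at 5 μM vs. 0 μM (95% confidence interval -0.47 to 0.09, adjusted p = 0.268), and it turned to 0.17 after quantile normalization. Between 10 μM and 0 μM it was -0.92 ± 0.12 (adjusted p = 0.00119), short of 2-fold. The dimmer probe set was called lower in that comparison when tested on its own, 2.14-fold (-1.10 ± 0.12, adjusted p = 0.000763). Its log2 signal fell from 10.03, 10.12 and 9.88 at 0 μM to 8.84, 9.05 and 8.85 at 10 μM, with 9.58, 9.80 and 9.58 at 5 μM in between.

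**Figure D4:**
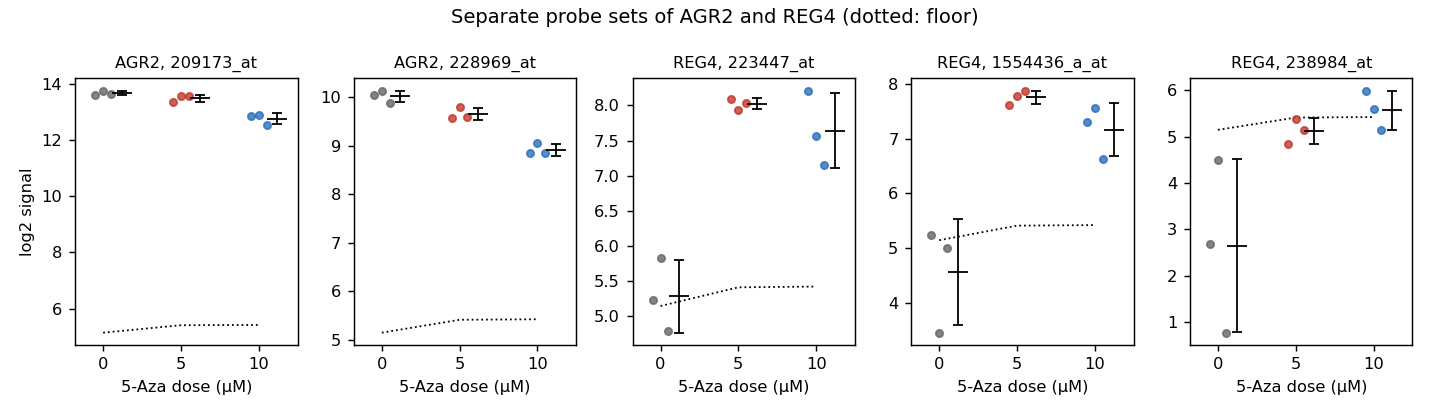
Log2 signal (y axis) of the separate probe sets of AGR2 and REG4 by 5-Aza dose in μM (x axis), ordered from the brightest to the dimmest within a gene, with mean ± SD (n = 3) and the mean floor as a dotted line. Both AGR2 probe sets were lowest at 10 μM, and on 2 of the REG4 probe sets all treated arrays lay above the controls and the floor. Each panel has its own y axis.

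The alpha defensins of Paneth cells, small peptides that kill bacteria, were below the floor on most arrays. DEFA6 had a log2 signal of 2.20, 2.51 and 4.78 at 0 μM, 6.93, 6.38 and 6.87 at 5 μM, and 2.46, 5.59 and 4.16 at 10 μM. It was above the floor on the 3 arrays at 5 μM and on 1 array at 10 μM. DEFA6 was at least 2.99-fold higher at 5 μM than at 0 μM (adjusted p = 0.0115), while the 10 μM and 0 μM values overlapped (log2 difference 0.91, 95% confidence interval -0.99 to 2.80). DEFA5 was below the floor on every array, with values of 0.38 to 4.70 at 0 μM, 4.80 to 5.07 at 5 μM and 3.10 to 4.87 at 10 μM, and no fold is given for it.

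At 10 μM vs. 5 μM, the higher against the lower dose, none of the 9 tested genes was called, beside 2.35% of all tested genes called in either direction and 0.264% called higher. At an unadjusted p under 0.05 (limma) there were 8 of the 9, beside 3817 of the 11756 tested genes. All 9 had a negative log2 difference (REG4 turned to 0.37 with the actin covariate and 0.19 with 10 μM replicates 2 and 3 left out), with a median of -0.73 beside -0.01 over all tested genes. TFF1 (-0.79), TFF2 (-0.60), TFF3 (-0.70), AGR2 (-0.73), SPINK4 (-0.90) and FCGBP (-0.64) passed the adjusted p without reaching 2-fold, as 8.92% of all tested genes did in the lower direction at any fold. The adjusted p-values of these 6 genes ran from 0.00778 for TFF1 to 0.0442 for SPINK4. With the actin covariate none of the 6 passed, and their adjusted p-values ran from 0.185 for SPINK4 to 0.478 for FCGBP. The 10 μM arrays lay below the 5 μM arrays without overlap in 8 of the 9, all but REG4, beside 18.6% of all tested genes, and above them in none, beside 17.3%. ZG16 and DEFA6 could enter the test only through their 5 μM arrays, which favoured a lower 10 μM value in advance. The counts and the median of this comparison are therefore a description. ZG16, with its 10 μM arrays below the floor, had a fitted difference of -2.13 (adjusted p = 0.0623), and DEFA6 one of -2.66 (adjusted p = 0.0631). DEFA6 was called lower with 0 μM replicate 3 or 10 μM replicate 2 left out, and ZG16 with 10 μM replicates 2 and 3 left out. In that last fit, where 1 array stood for 10 μM and was assumed to vary like the other groups, AGR2 was the 1 gene of the 6 that passed the adjusted p (0.0494).

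At 10 μM vs. 0 μM, TFF1, TFF2, SPINK4, REG4 and ZG16 were called higher, the last on signals below the floor, and none were called lower. This is 5 of the 9 tested genes, beside 7.58% of all tested genes called in either direction and 6.08% called higher. Without overlap, 5 of the 9 were higher, beside 25.5% of all tested genes, and AGR2 was lower, beside 19.0%. The median log2 fold change was 1.34, falling to 0.98 when signals below the floor were set to it, beside 0.05 over all tested genes. The same 5 genes had also been called at 5 μM, as were 4.61% of all tested genes at both doses. Both comparisons use the same control arrays. SPINK4, ZG16, REG4 and DEFA6 could enter the test only through treated groups, so these counts and medians are a description. Of TFF1, TFF2, TFF3, AGR2 and FCGBP, which lay above the floor on every array, TFF1 and TFF2 were called higher. With the actin difference as a covariate none of the 5 called genes kept its call. In that fit 4 of the 9 genes had an unadjusted p under 0.05 (limma), beside 997 of the 11756 tested genes. The log2 fold change was then 1.52 for TFF1, 0.99 for TFF2, 1.15 for SPINK4, 4.07 for REG4 and -0.93 for ZG16, in place of 1.66, 1.34, 2.34, 2.36 and 2.29. The covariate rises with the dose, and with it the median standard error of the 9 log2 differences was 0.47 in place of 0.15. With 10 μM replicates 2 and 3 left out, the number called was again 5, with FCGBP (1.21, adjusted p = 0.00514) in place of ZG16.

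**Figure D5:**
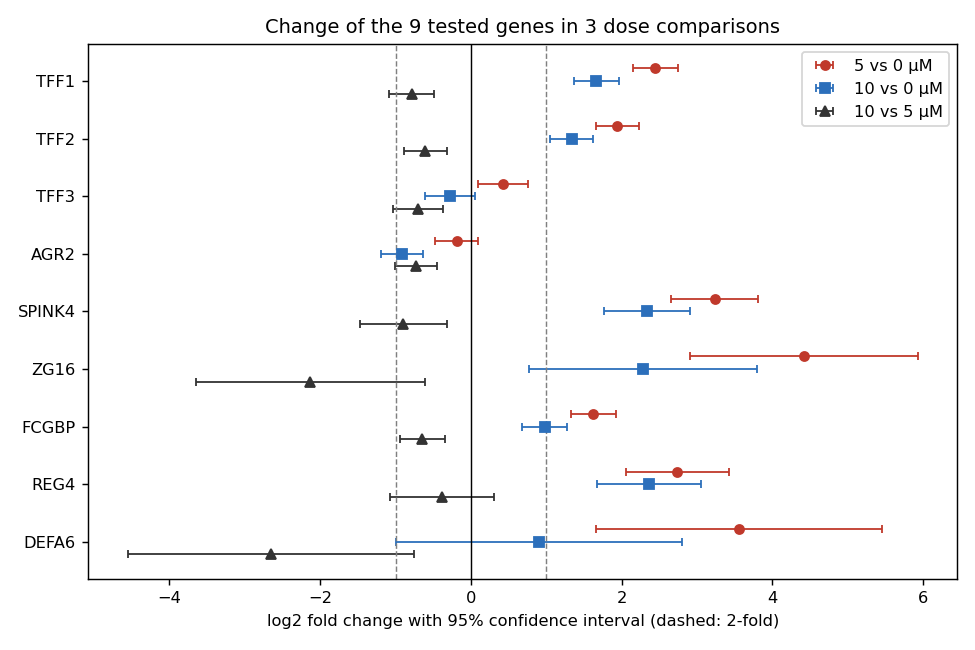
Log2 fold change with 95% confidence interval (x axis) of the 9 tested genes (y axis) in the 3 dose comparisons, with dashed lines at 2-fold. All 9 differences at 10 μM vs. 5 μM are below 0 in this fit, though that of REG4 turned under other settings (0.37 and 0.19), and the intervals of ZG16 and DEFA6 are the widest. Fitted values of SPINK4, ZG16, REG4 and DEFA6 rest partly on signals below the floor.

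Other goblet cell genes moved both ways. The array held 22 of them and 17 could be tested, of which 5 were higher and 1 lower at 5 μM vs. 0 μM. Beside this, 9.92% of all tested genes were called in either direction and 8.60% higher. The median log2 fold change of the 17 was 0.70. None of the 5 reached the floor on all of the 0 μM arrays. They could enter the test only through treated groups, so this count and median are a description. MUC1, a membrane mucin gene, rose by a log2 fold change of 2.74 ± 0.27, RNASE1, a secreted ribonuclease gene, was at least 3.38-fold higher and CLCA1, a secreted metalloprotease gene of goblet cell mucus, at least 2-fold higher. FAM3D, which encodes a secreted cytokine-like protein, fell by 1.21 on the log2 scale. MUC2, the main gel-forming mucin of the intestine, had 7.26 ± 0.24 (SD, n = 3) at 0 μM, 7.90 ± 0.18 at 5 μM and 6.40 ± 0.63 at 10 μM. It was called lower at 10 μM vs. 5 μM (-1.50 ± 0.28, SE), as was MUC1 (-1.10 ± 0.27), beside 2.35% of all tested genes called in either direction. Against 0 μM, 4 of the 17 were higher at 10 μM and 0 lower, beside 6.08% of all tested genes called higher. These were SYTL2, a vesicle transport gene (1.03 ± 0.12), MUC1 (1.64 ± 0.27), RNASE1 (at least 2.64-fold) and CLCA1. The signal of CLCA1 reached the floor on only 1 of the 10 μM arrays, and its rise was bounded at no more than at least 1.05-fold. AGR3, the paralog of AGR2, was chosen after its values were seen: 10.08 ± 0.14 (SD), 9.67 ± 0.05 and 9.12 ± 0.25 at 0, 5 and 10 μM.

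The array held 12 other Paneth cell genes. Of these, 6 lay above the floor on all 9 arrays and were tested. At 5 μM vs. 0 μM, 3 were higher and none lower, beside 8.60% of all tested genes called higher. The 3 were DEFB1, a beta defensin gene (2.13 ± 0.10), PRSS2, a trypsinogen gene of Paneth cells and pancreas (10.17 ± 0.09 at 0 μM and 11.66 ± 0.05 at 5 μM, mean ± SD), and ANG, an antimicrobial ribonuclease gene (1.07 ± 0.16). DEFB1 was also higher at 10 μM vs. 0 μM (1.44 ± 0.10), beside 6.08% of all tested genes called higher. None of the 6 differed by the call rule between 10 μM and 5 μM, beside 2.35% of all tested genes. LYZ, the lysozyme gene, was high and was not called, with 13.68 ± 0.05 (SD) at 0 μM, 13.20 ± 0.10 at 5 μM and 13.44 ± 0.07 at 10 μM. REG1A, REG1B, REG3A, REG3G and NOD2 were below the floor on all arrays. The summed linear signal of the 12 genes was 21850 to 23713 at 0 μM, 17967 to 20083 at 5 μM and 18514 to 20522 at 10 μM, lower on every treated array than on the controls. This sum is carried mostly by LYZ and CD24, the brightest of the list, neither of which was called. CD24 had 12.94 ± 0.08 (SD), 12.47 ± 0.10 and 12.48 ± 0.14 at 0, 5 and 10 μM. DEFB1, PRSS2 and ANG, which were higher at 5 μM, weigh less in it.

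The transcription factors and Notch ligands that set the secretory lineage did not change by the call rule. The array held 16 of them and 11 could be tested, and 0 were called in any of the 3 comparisons. The median log2 differences were -0.08 at 5 μM vs. 0 μM, -0.15 at 10 μM vs. 5 μM and 0.01 at 10 μM vs. 0 μM. In the same order, 9.92%, 2.35% and 7.58% of all tested genes were called. SPDEF, a driver of goblet cell maturation, had 8.57 ± 0.11 (SD), 8.50 ± 0.07 and 8.58 ± 0.14 at 0, 5 and 10 μM. KLF4, a factor of goblet cell differentiation, had 11.31 ± 0.07, 11.55 ± 0.10 and 11.07 ± 0.10, and XBP1, a regulator of the secretory apparatus, 12.07 ± 0.08, 11.94 ± 0.02 and 12.18 ± 0.02. Short of the call rule, others of the list moved in both directions. FOXA3 had 7.25 ± 0.17, 8.19 ± 0.03 and 7.40 ± 0.28 at 0, 5 and 10 μM. SOX9 had 11.61 ± 0.05, 11.14 ± 0.16 and 11.03 ± 0.10. ATOH1, the gene that commits cells to the secretory lineage, was below the floor on all but 1 array, at 5 μM, and was not tested.

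Genes of protein folding in the secretory pathway, the setting in which AGR2 works, were all measured above the floor at both treated doses. Of 17 tested, 2 were higher at 5 μM vs. 0 μM, beside 8.60% of all tested genes called higher. They were ERO1B, an oxidase of the endoplasmic reticulum (2.89 ± 0.30), and CRELD2, an endoplasmic reticulum stress gene (1.66 ± 0.12). ERO1B did not reach the floor on all of the 0 μM arrays and could enter the test only through treated groups. At 10 μM vs. 5 μM, 3 were lower, namely ERO1B (-1.57 ± 0.30), CRELD2 (-1.22 ± 0.12) and the disulfide isomerase PDIA3 (-1.50 ± 0.23), beside 2.35% of all tested genes called in either direction. ERO1B was the 1 gene higher at 10 μM vs. 0 μM (1.32 ± 0.30), beside 6.08% of all tested genes.

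Of 14 gastric epithelial genes, a list that holds TFF1 and TFF2 themselves, 8 were tested. At 5 μM vs. 0 μM, 4 were higher, beside 8.60% of all tested genes called higher. Apart from TFF1 and TFF2 these were the transcription factor gene SOX2, at least 2.90-fold higher, and CTSE, the cathepsin E gene, at least 2.17-fold higher. SOX2 and CTSE were below the floor on all control arrays and could enter the test only through treated groups, so the count is a description. Against 0 μM, 3 were higher at 10 μM, TFF1, TFF2 and SOX2 (at least 1.45-fold), beside 6.08% of all tested genes called higher. ANXA10, an annexin gene, was lower (-1.68 ± 0.22). MUC5AC, the gel-forming mucin of the stomach surface, was not called at 10 μM vs. 5 μM, with 10.88 ± 0.07 (SD) at 5 μM and 9.99 ± 0.39 at 10 μM, and no gene of the list was.

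Markers of other cell types were counted alongside, and their part in the results above was not tested. Of all tested genes, 8.60% were called higher at 5 μM and 6.08% at 10 μM vs. 0 μM. Of 16 enterocyte genes 6 were tested, with 4 higher at 5 μM and the same number at 10 μM vs. 0 μM, among them the peptidase gene ANPEP (at least 3.75-fold at 5 μM), and 1 lower at 10 μM vs. 5 μM. Their summed linear signal was 576 to 627 at 0 μM, 1217 to 1303 at 5 μM and 868 to 1010 at 10 μM. SI, ALPI, FABP1, SLC26A3, AQP8, MS4A12 and APOA1 were below the floor on every array. ANPEP, GUCA2A and GUCA2B could enter the test only through treated groups. So could GCG, INSM1, SCG5, VIM, TEK and ITGAM of the lists that follow. Of 9 enteroendocrine genes 5 were tested, with 3 higher at 5 μM, led by the glucagon gene GCG (at least 8.85-fold), and 1 lower, 2 lower at 10 μM vs. 5 μM and 1 higher at 10 μM vs. 0 μM. Their summed signal was 282 to 430, 735 to 785 and 461 to 527. Of 10 fibroblast genes 3 were tested and all were higher at 5 μM: COL1A1 (2.68 ± 0.26), LUM (1.57 ± 0.16) and VIM (at least 1.55-fold). COL1A1 and VIM were higher at 10 μM as well, while COL3A1, PDGFRB, THY1, FAP and SPARC were below the floor. The paper reports that RNA-Seq and quantitative PCR detected SPARC in the cultures treated at the lower dose, whereas the arrays showed no activation. The low array signal of SPARC is therefore not read as absence of its RNA. The summed fibroblast signal was 323 to 409, 1149 to 1196 and 684 to 826. Of 6 endothelial genes 2 were tested and TEK was higher at 5 μM (1.41 ± 0.29), with CDH5, VWF, KDR and CLDN5 below the floor and sums of 125 to 166, 199 to 283 and 136 to 198. For blood cells 3 of 7 genes were tested, and ITGAM was at least 2.70-fold higher at 5 μM, with PTPRC below the floor and sums of 170 to 227, 257 to 296 and 172 to 261. Of the 12 tested colon epithelial genes KRT19 was lower (-1.54 ± 0.10) and CEACAM5 higher (1.67 ± 0.13) at 5 μM, and KRT19 and KRT8 were lower at 10 μM vs. 0 μM. Their median log2 difference was -0.42 at 5 μM and -0.59 at 10 μM vs. 0 μM, and the summed signal of the 14 listed genes was 108477 to 111691, 76293 to 84832 and 68903 to 80004, lower on every treated array than on the controls.

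The likeness of profiles was measured as the root mean square difference over the 9 arrays between centred log2 signals, with low signals raised to the floor. Among pairs of the 7 called genes, TFF1 and SPINK4 (0.246), ZG16 and DEFA6 (0.246) and TFF1 and TFF2 (0.273) were nearest, and ZG16 and REG4 (0.931) farthest. Outside the lists, the nearest tested genes were GPC1, LBH and MTFR2 to TFF1 (0.150 to 0.157), LINC00513, GSTA4 and KREMEN1 to TFF2 (0.111 to 0.160), and SLC51B, MTFR2 and ITGA7 to SPINK4 (0.182 to 0.192). FCGBP was nearest to the class I antigen genes HLA-C (0.112) and HLA-F (0.118), followed by HPN (0.126). REG4 had no gene as close, with ATP6V1C2 (0.310), CCK (0.318) and AMN1 (0.324) as the nearest. SLC6A12 (0.059), LINC02381 and RAB43 were nearest to ZG16, and LINC02381 (0.111), FBXO6 and TIGD7 to DEFA6, for which most arrays stood at the floor.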

How the data were processed

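Groups were taken from the sample labels, 3 cultures each at 0, 5 and 10 μM 5-Aza. The values deposited by the authors are log2 signals. RMA and affy 1.14.2 are named in the submitters' processing notes, but the values have the form of MAS 5.0 signals: the linear 2% trimmed mean was 250.1 on every array, so each array was scaled by 1 factor and not quantile normalized. Left out were 6 probe sets with a missing value.

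Genes were named from the platform's gene table and RefSeq symbols: 41091 probe sets had 1 gene, 1801 several and 11721 none. Each gene was represented by the probe set with the highest mean. All 9 arrays entered 1 linear model with a mean for each dose (lmFit, then eBayes; limma 3.58.1, R 4.3.3), which was tested on simulated data. Where all signals of a group were below the floor, low values were raised to the array median and the fold was given as at least that large. The number of arrays limits the precision. Replicate numbers did not pair the arrays. Genes of the lists were named by rule: up to 4 called per comparison with the smallest p, or the 2 with the highest mean where none was called, and 3 nearest profiles per called gene. AGR3, SPDEF, ATOH1, FOXA3, SOX9 and the markers named as below the floor were added after their values were seen. The 10 genes and all lists were chosen with earlier results of these data known. Alternatives covered the filter, probe set choice, normalization, test, design and each array left out. That of leaving out 10 μM replicates 2 and 3 was chosen after seeing the data. Plots were made in Python 3.11.15 (matplotlib 3.10.9).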

Additional observations from a re-analysis of the deposited data

How the results depend on the processing

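Of 615 fold changes of the 9 tested genes recomputed under up to 23 other settings, 582 kept their direction and their side of the call rule, 16 lost a call, 11 gained one and 6 turned direction. At 5 μM vs. 0 μM, TFF1, TFF2, SPINK4, FCGBP and REG4 were called under every setting run. The values that turned were AGR2 at 5 μM vs. 0 μM (0.17 after quantile normalization), REG4 at 10 μM vs. 5 μM (0.37 with the actin covariate, 0.19 with 10 μM replicates 2 and 3 left out), ZG16 at 10 μM vs. 0 μM (-0.93 with the covariate) and DEFA6 at 10 μM vs. 0 μM (-3.41 with the covariate, -0.71 with those replicates left out). ZG16 and DEFA6 were not tested with the floor at the 60th percentile. The cause was not tested for any of these.

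With the actin covariate, 663 genes were called at 5 μM vs. 0 μM in place of 1166, 12 at 10 μM vs. 5 μM in place of 276, and 0 at 10 μM vs. 0 μM in place of 891. Of the 10 genes, 5, 0 and 0 were called in these comparisons. Without the fold threshold the numbers were 3941, 1864 and 3893, and 6 of the 10 genes passed at 10 μM vs. 5 μM. With every probe set tested on its own, 439 were called at 10 μM vs. 5 μM and 1475 at 10 μM vs. 0 μM, and the methods' t-test with Benjamini-Hochberg adjustment called 114 and 437. At 10 μM vs. 5 μM, 1 of the 10 genes (DEFA6) was called by eBayes with trend and robust, 2 (DEFA6, ZG16) with low signals raised to the floor and 1 (ZG16) with 10 μM replicates 2 and 3 left out. AGR2 was called lower at 10 μM vs. 0 μM with the mean of its probe sets (-1.01) or equal array medians (-1.20). Leaving out 1 array at a time gave 1094 to 1189, 157 to 381 and 755 to 1088 genes in the 3 comparisons, the low of 157 without 5 μM replicate 3, and 7, 0 to 1 and 4 to 5 of the 10 genes. Equal array medians moved the median of all genes to -0.22 at 5 μM and -0.23 at 10 μM vs. 0 μM, and the share of higher calls from 86.7% to 61.9% and from 80.2% to 49.1%, while quantile normalization gave 78.7% and 68.9%. With the replicate number as a block, 1167, 265 and 892 genes and 7, 0 and 5 of the 10 were called. The numbers share no batch in the labels, and the deviations of same-numbered arrays correlated at -0.089 to 0.179.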
